A study of Drosophila melanogaster with 4 samples.

Results

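The Eip75B locus is described here by the peaks that GFP-tagged Ultraspiracle (USP) gave over it in a chromatin immunoprecipitation and sequencing (ChIP-seq) study of Drosophila melanogaster embryos. Its peaks are all those of the deposited list that overlap 3L:17940000-18070000 in FlyBase release 5. This window gave 31 peaks, out of 1540 on all sequences, of which 1397 lay on the 6 arms compared here (X, 2L and 2R, 3L and 3R, and 4). There were 2 ChIP libraries, made with a rabbit polyclonal antibody against GFP, and 2 Input libraries of chromatin DNA without immunoprecipitation. All came from strain USP-GFP, genotype PBac{y[+]-attP-3B}VK00033, with a transgene of the genomic coding region of usp, collected at 0 to 12 h. Both kinds of library therefore carried the transgene. The labels do not say whether the endogenous usp gene was intact, and their collection protocol names a y; bw cn sp stock in place of USP-GFP. Whole embryos of mixed age were pooled, so binding in few cells and weaker binding in many cannot be told apart.

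Eip75B encodes E75, a heme-binding nuclear receptor related to vertebrate Rev-erb. It is a classic early gene of the ecdysone response, named for the chromosome puff at 75B that the hormone raises in larval salivary glands. Ecdysone acts through a heterodimer of the ecdysone receptor EcR and USP, the fly counterpart of RXR, which binds response elements in early genes. The E75 proteins act in turn on later genes, in part by pairing with the nuclear receptor Hr46 and blocking its activity. In embryos, ecdysone signalling is needed for morphogenesis after the early patterning steps. The RefSeq gene table lists 7 transcripts and 7 proteins for Eip75B (gene 39999, Dmel_CG8127). It places lncRNA:CR45921, lncRNA:CR45922, CG32192 and CG42393 inside the gene, with lncRNA:CR45393 as its neighbour on one side and CG44006 on the other. That table is of Release 6, another build, so its positions were not set beside the peaks. The name of the locus rests on the window, and no peak is assigned to a promoter, exon or intron.

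The window was selected on measured values, the called peaks in it with their positions, widths and scores. Its counts, scores and ranks are therefore descriptions with no test. The list holds 1 score per peak for the whole series and nothing by library. Replicate errors could not be computed, and sequencing depth is unknown. The score is the authors' own value per peak. Its definition is not stated, and it ranks peaks within this list only. Sums and ratios of scores given below describe the listed values and do not measure amounts of binding.

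A single broad peak dominated the locus. It ran over 3L:17955281-17987476, was 32.2 kb wide and had a score of 273.37. It was the widest peak on the arms, 2.51 times the width of the next (12.8 kb, X:1834460-1847262), and its score was at rank 4 on the arms. It made up 52.2% of the 61.7 kb inside peaks in the window. The broad peak also held 3.58% of all bases inside arm peaks (898 kb in all). The other 30 peaks were 201 to 3255 bp wide, with a median of 584 bp, and together covered 29.5 kb. The broad peak was thus 1 interval in the list, with no summit or substructure given, and the number of separate binding sites inside it is unknown.

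**Figure D1:**
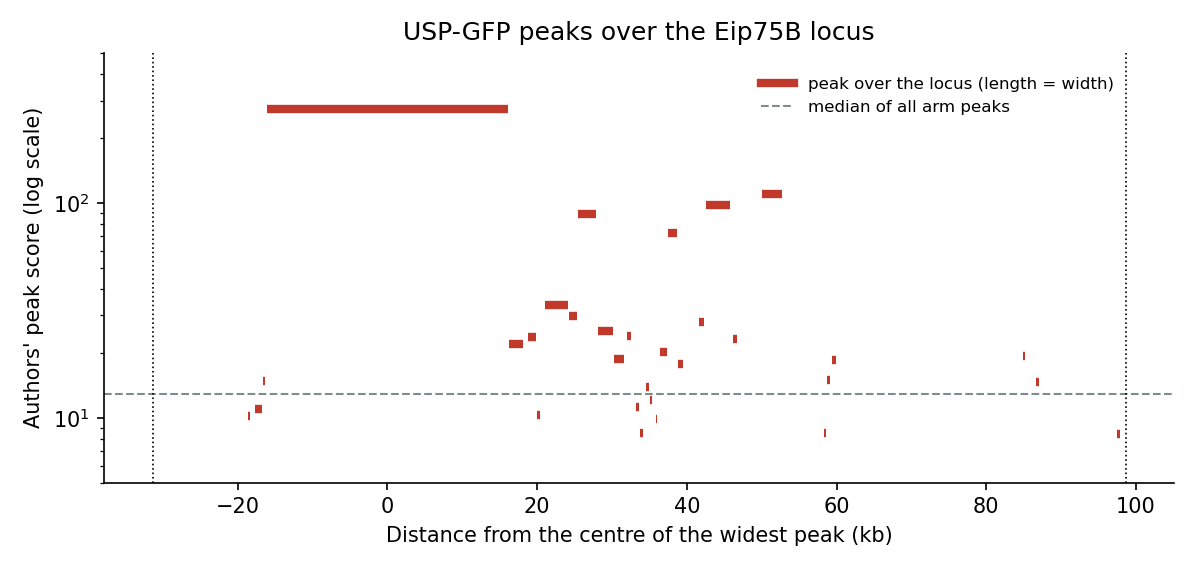
Peaks over the Eip75B locus by position and score. The x axis is the distance in kb from the centre of the widest peak, the y axis the authors' peak score on a log scale; each bar spans 1 peak from first to last base, the dashed line is the median score of all arm peaks (12.9) and the dotted lines are the ends of the window. The 32.2 kb peak stands alone at 273.37, and 27 of the other 30 peaks lie to its right.

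More of the peaks lay after the broad one than before it, in part because the window holds 15.3 kb before it and 82.5 kb after it. Over equal distances of 50 kb, which reach outside the window on the left, there were 6 peaks before it and 24 after it. Of the window's peaks, 3 came before it, in a span of 2.37 kb. The first was at 3L:17952684-17953022 (score 10.21, 339 bp). A 964-bp peak at 3L:17953624-17954587 (score 10.99) and a 336-bp peak at 3L:17954714-17955049 (score 14.86) followed. After the broad peak came 27 peaks, and 17 of these formed an unbroken run from 17987637 to 18010841, in which no gap passed 2 kb. This run was 23.2 kb long and was covered to 80.0%, with peak widths of 201 to 3045 bp (median 992 bp) and scores of 8.53 to 89.31 (median 20.2). The left peaks, the broad peak and the run together made a block of 21 peaks from 17952684 to 18010841. Peaks covered 90.1% of this 58.2 kb block and left 5.77 kb uncovered.

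Within that run, the 5 peaks nearest the broad one scored 10.36 to 33.38. A 1906-bp peak at 3L:17987637-17989542 began 160 bp after the broad peak ended and scored 22.17. The next was 1025 bp wide, at 3L:17990151-17991175, with a score of 23.79. A 360-bp peak at 3L:17991362-17991721 scored 10.36, below the arm median. The third widest peak of the locus, 3045 bp at 3L:17992487-17995531, scored 33.38, and a 1018-bp peak at 3L:17995689-17996706 scored 29.98. The first high score of the run came next, with 89.31 over 2446 bp at 3L:17996791-17999236. It was followed by peaks of 2029 bp at 3L:17999542-18001570 (score 25.33) and 1374 bp at 3L:18001657-18003030 (score 18.73). Scores thus dropped on both sides of the 89.31 peak to under 30.

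The second stretch of the run was made of small peaks. From 3L:18003320-18003974 (655 bp, score 24.1) to 3L:18007257-18007457 (201 bp, score 9.9) there were 6 peaks, and the 4 between them were 232 to 475 bp wide with scores of 8.53 to 13.93. The 201-bp peak was as narrow as the narrowest of the list. A 992-bp peak at 3L:18007802-18008793 then scored 20.18. The run closed with a 1199-bp peak at 3L:18008915-18010113, whose score of 72.56 was the fifth highest of the locus, and a 678-bp peak at 3L:18010164-18010841 with 17.88.

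Beyond the block, the locus held 2 more peaks with scores above 90 and then thinned out. A group of 3 peaks lay from 18013006 to 18018096. Its middle member, 3255 bp at 3L:18013930-18017184, scored 98.52 and was the second widest of the locus. The members beside it scored 27.97 (648 bp) and 23.4 (509 bp). After a gap of 3.37 kb, a lone peak of 2619 bp at 3L:18021464-18024082 had the second highest score of the locus, 110.15. Another 5.60 kb on, 3 peaks from 18029680 to 18031299 scored 8.51, 14.96 and 18.66.

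A gap of 25.0 kb followed, the longest of the locus. The last 3 peaks were all narrow. They lay at 3L:18056327-18056622 (296 bp, score 19.37), 3L:18058013-18058384 (372 bp, score 14.73) and 3L:18068906-18069238 (333 bp, score 8.38, the lowest of the locus).

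Coverage in 10-kb steps of the window showed the same shape. The first step, from 17940000, held no peak. The next 3 were covered to 63.6%, 100% and 100%, and the fifth to 93.8%. Coverage then declined step by step, to 83.5%, 75.0%, 52.0%, 29.4% and 9.57%. The eleventh step, from 18040000, was empty, and the last 2 were covered to 6.68% and 3.33%. Peak number did not follow coverage. The steps covered to 100% held 0 and 1 peak centres, while the step from 18000000, at 75.0%, held 10.

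**Figure D2:**
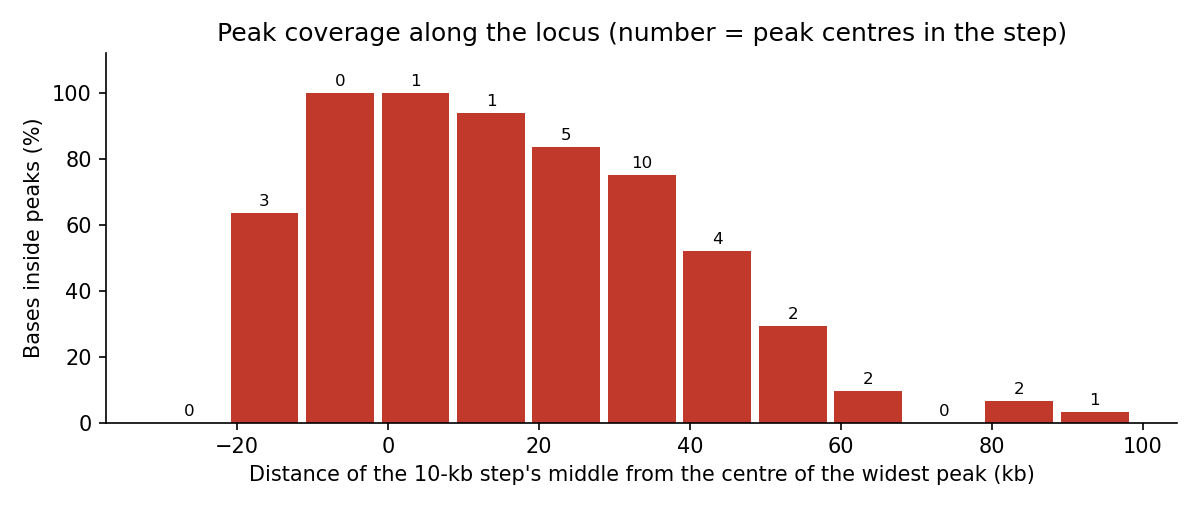
Share of bases inside peaks in each 10-kb step of the window. The x axis is the distance in kb of the step's middle from the centre of the widest peak, the y axis the percentage of bases inside peaks, and the number over each bar counts the peak centres in the step. Coverage reaches 100% inside the broad peak and declines to the right, while the step with the most centres (10) is covered to 75.0%.

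The ends of the window fell unevenly on the list. On the left, the first locus peak lay 12.7 kb inside the window, and the nearest peak outside it, at 3L:17931662-17932269 (608 bp, score 15.17), ended 7.73 kb before it. The empty stretch between these peaks was 20.4 kb. On the right, the last locus peak lay 0.762 kb inside the window, and the nearest peak outside, at 3L:18070643-18071284 (642 bp, score 18.12), began 0.643 kb beyond it. Further peaks came 2.18 and 6.94 kb beyond the end, with scores of 23.92 and 13.86. The right end thus cut through a group of small peaks, and the 333-bp member there was 1.40 kb from a peak that is not counted.

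Scores in the locus fell into a few high values and many low ones. The locus median was 18.7 (interquartile range 11.7 to 26.7), beside 12.8 (interquartile range 10.0 to 19.3) over the other 1366 arm peaks. In windows of the same length with the next highest coverage, the median was 30.61 (2R:6030000-6160000), 17.05 (X:1760000-1890000) and 16.53 (3L:5520000-5650000). It was 16.16 in 2L:5970000-6100000 and 12.46 in 2L:21410000-21540000. Of the 31 peaks, 22 scored above the arm median, where 49.9% of all arm peaks did. A score of 100 or more was reached by 2 locus peaks, against 2.22% of all arm peaks. In the same order, the windows next in coverage held 4, 2, 2, 2 and 0 such peaks. A score of 20 or more was reached by 14, against 24.5% of all arm peaks. With a bound of 70, chosen after the scores were seen, there were 5 high peaks, against 4.37% of all arm peaks. The remaining 26 ran from 8.38 to 33.38, with a median of 16.4, so no locus peak scored between 33.38 and 72.56.

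These 5 high peaks were spread along the block and beyond it. From the centre of the broad peak to that of the 89.31 peak was 26.6 kb, and the next steps were 11.5 kb to the 72.56 peak, 6.04 kb to the 98.52 peak and 7.22 kb to the 110.15 peak. Between them lay 5, 9, 2 and 1 peaks of lower score. Across the 27 peaks to the right of the broad one, score and position had a Spearman's rho of -0.23. Neighbouring peaks can be pieces of 1 enriched stretch, so these are not 27 independent points.

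The typical peak of the locus was wider than that of the other arm peaks. Medians were 648 bp in the locus (quartiles 366 and 1287 bp) and 382 bp over the other arm peaks (quartiles 265 and 674 bp). Some windows of the same length with the next highest coverage had wider typical peaks. Their medians were 1175.5 bp (2R:6030000-6160000), 791 bp (3L:5520000-5650000) and 776 bp (X:1760000-1890000). In 2L:5970000-6100000 and 2L:21410000-21540000 the medians were lower, at 605 and 378 bp. A width of 1 kb or more was reached by 11 of 31, against 14.1% of all arm peaks. For 2 kb or more the count was 6, against 3.44% of all arm peaks. The broad peak was the single member of 5 kb or more, a width reached by 0.644% of all arm peaks (9 peaks).

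Width and score went together in the locus, with a Spearman's rho of 0.82 over its 31 peaks and 0.80 without the broad one, beside 0.76 over the rest of the arms. A line of log score on log width through the other 1366 arm peaks served to set a score against the width it came with. Of the 31 locus peaks, 15 lay above it, against 48.4% of all arm peaks. The broad peak scored 0.587 times the value of the line at its width (466), which extends the line past the widest of the other peaks. Among the other arm peaks, 88 lay further below the line than this.

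The wider members split in this measure. Of the 11 locus peaks of 1 kb or more, 5 scored under 0.6 times the line, a bound set after the values were seen, against 16.8% of all arm peaks of that width. They were the broad peak and the peaks of 1906, 3045, 2029 and 1374 bp in the run after it, whose ratios were 0.455, 0.471, 0.494 and 0.499. The other high peaks were above the line, at 1.50 times for the 89.31 peak, 2.16 for the 72.56 peak, 1.32 for the 98.52 peak and 1.75 for the 110.15 peak. The 23.2 kb run thus held peaks with scores low for their width beside peaks with scores high for their width. The 4 low ones of the run, at 18.73 to 33.38, were still above the arm median score of 12.9. Among the other 186 arm peaks of 1 kb or more, 28 were under 0.6 times the line, and their median ratio was 1.08, beside 0.801 in the locus.

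**Figure D3:**
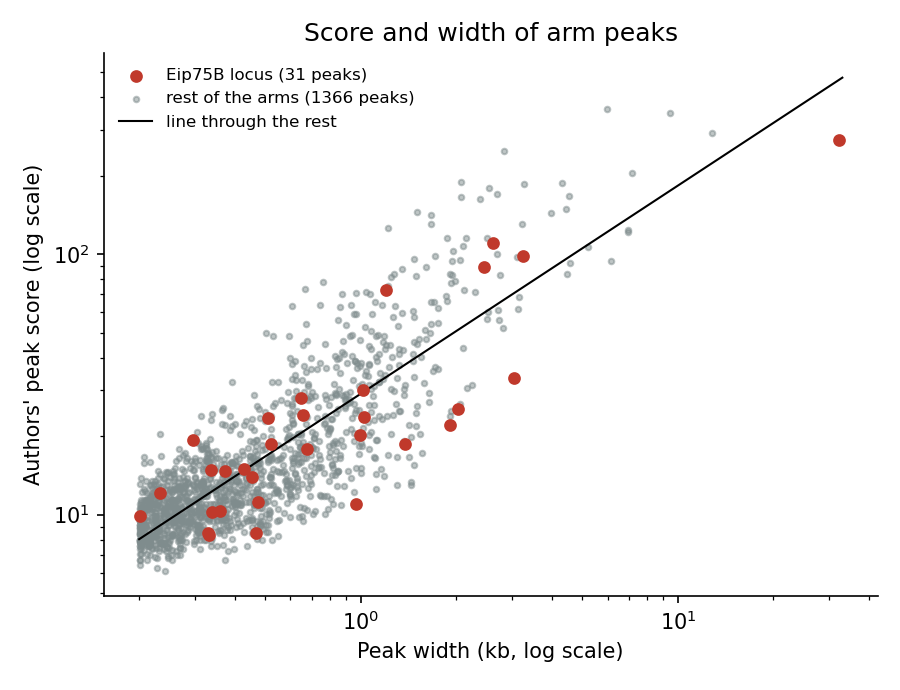
Authors' peak score (y axis, log scale) against peak width in kb (x axis, log scale) for the 31 peaks of the Eip75B locus and the 1366 other peaks of the 6 major arms. Each point is 1 peak and the line is fitted through the other arm peaks; the broad peak, at 32.2 kb, lies below the extended line at 0.587 times its value.

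Gaps between neighbouring peaks were short along most of the locus. The 30 gaps had a median of 297 bp (interquartile range 134 to 606 bp). For the other 1361 gaps on the arms the median was 12.4 kb (interquartile range 0.550 to 111 kb). Gaps inside the locus cannot exceed the window, which was selected by its peaks, while the other gaps reach 1360 kb. Much of this contrast was therefore set by the choice of window. A gap of 500 bp or less was found for 19 of 30 (63.3%), against 24.3% of all gaps on the arms. Such spacing was not particular to the locus. In the windows next in coverage elsewhere, this share was 75.0% (3L:5520000-5650000), 72.7% (2R:6030000-6160000) and 70.0% (2L:5970000-6100000). It was 57.1% in X:1760000-1890000 and 48.3% in 2L:21410000-21540000. A gap of 2 kb or less was found for 25 of 30, against 34.7% of all gaps on the arms. The shortest, 50 bp, lay between the 72.56 peak and its right neighbour and equalled the shortest of the list. Peaks with neighbours within 500 bp on both sides numbered 12. Gaps above 5 kb numbered 3, all to the right of the 110.15 peak.

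**Figure D4:**
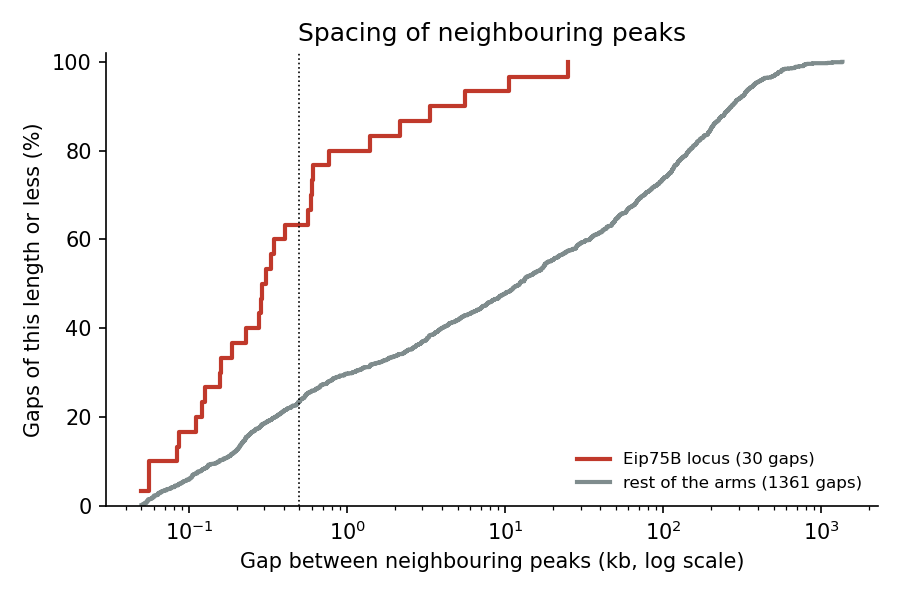
Cumulative share of gaps (y axis, %) by gap length between neighbouring peaks (x axis, kb, log scale) for the 30 gaps inside the Eip75B locus and the 1361 other gaps on the 6 major arms. The dotted line marks 0.5 kb, which 63.3% of locus gaps and 23.4% of the other gaps do not exceed. Gaps inside the locus cannot exceed the window of 130 kb.

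Counting near peaks as 1 changed their number but not the place of the broad interval. Merged at gaps of up to 500 bp, the 31 peaks became 12 intervals. The widest, 3L:17953624-17989542, held 4 peaks and was 35.9 kb long, and the widest merged interval elsewhere was 22.1 kb (3L:5608767-5630899, 8 peaks). The next widest in the locus joined 6 peaks over 11.5 kb from 17992487 to 18003974 and was rank 6 on the arms, and the interval around the 98.52 peak was 5.09 kb long. At gaps of up to 1 kb, the block of 21 peaks became 1 interval of 58.2 kb, 1.93 times the next widest (30.1 kb, 3L:5601602-5631722, 16 peaks).

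The locus stood highest by coverage and not by number of peaks among windows of the same length. Windows were taken every 10 kb along the 6 arms, 11700 in all, of which 46.5% held no peak. In the Eip75B window 47.5% of bases were inside peaks. Of the 11673 windows that do not overlap it, none was covered more, and the highest was 2L:21410000-21540000 with 24.3%. The locus thus had 1.95 times its covered bases. The median window elsewhere had 240 bp inside peaks. This place rested on the broad peak: without it the locus was covered to 22.7%, and 2 windows elsewhere, which overlap each other on 2L, were covered more. Windows elsewhere kept their widest peaks in this comparison. Ranked with the windows that overlap it, the locus was at rank 5 by covered bases, since 4 shifted windows held the same broad peak and slightly more besides (up to 48.5%).

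By number of peaks, 13 windows elsewhere held more than 31, and all of these lay in 1 stretch of 2L with up to 59 peaks. The rank was 14 without the overlapping windows and 17 with them. By highest score, 42 windows elsewhere were above the locus, in 3 stretches, 2 on 2L and 1 on X. By the sum of scores, none of the windows that do not overlap the locus was higher, and the rank was 6 with the overlapping ones. The locus summed to 1098, beside 827 for the highest elsewhere, 2R:6030000-6160000. This place rested on the broad peak too: without it the locus summed to 824, below that window. Such a sum also depends on how many peaks a stretch was split into.

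**Figure D5:**
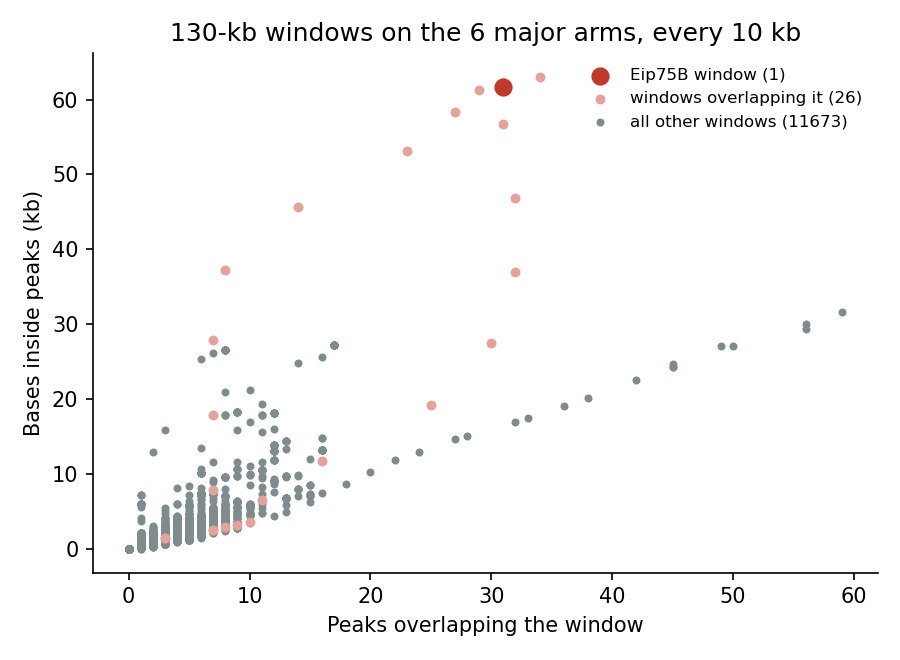
Number of peaks (x axis) and bases inside peaks (y axis, kb) for 11700 windows of 130 kb taken every 10 kb along the 6 major arms. Each point is 1 window; the Eip75B window (31 peaks, 61.7 kb) lies far above all windows that do not overlap it, and the grey points with more peaks come from 1 stretch of 2L.

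The windows next in coverage were built differently. The 2L window had 59 peaks with a median width of 378 bp, and its widest, 1476 bp, held 4.67% of its covered bases. Its scores ended at 21.47. By contrast, X:1760000-1890000 had 8 peaks and was covered to 20.4%, with 48.3% of this in 1 peak, and 2L:5970000-6100000 had 11 peaks and was covered to 14.9%, with 48.9% in 1 peak. In 3L:5520000-5650000, 17 peaks covered 20.9%, and 12 of its 16 gaps were 500 bp or less. The Eip75B window had both features, 52.2% of covered bases in 1 peak and 30 further peaks.

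The difference depended on the length of the stretch. Over 10 kb, the locus and X:1835000-1844999 were both covered to 100%, each inside 1 peak. Over 20 kb, the best stretch of the locus was covered to 100% and the best elsewhere to 95.3% (3L:5609000-5628999). Over 50 kb these were 94.0% and 54.3%, and over 100 kb 60.7% and 27.2%. By number of peaks the locus led at 1 of these 4 lengths. The most peaks were 11 in the locus and 11 elsewhere over 10 kb, and 16 in the locus and 13 elsewhere over 20 kb. Over 50 kb they were 25 in the locus and 27 elsewhere, and over 100 kb 28 in the locus and 48 elsewhere.

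High-scoring peaks elsewhere had fewer neighbours. Within 50 kb on either side of the broad peak lay 30 other peaks. Around the 110.15 peak there were 29, largely the same peaks, and each count includes the other high peak. The other 29 arm peaks of score 100 or more had 0 to 16 peaks within the same distance, with a median of 8. The window was selected by its peaks, so this contrast was in part set by that choice. Among the 9 arm peaks of 5 kb or more, the highest arm score (361.49, 2L:15908166-15914119) had no peak within 50 kb. The next widest peak, on X, had 7. The most outside the locus were 16 each, for 3L:5608767-5615726 and 3L:5618740-5624907.

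In all, the window took up 0.111% of the summed spans of the arms (117 Mb, each from its first to its last peak). It held 2.22% of arm peaks and 6.87% of the bases inside arm peaks. On 3L alone these shares were 8.81% of 352 peaks and 24.6% of the bases inside peaks, in 0.532% of the span.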

How the data were processed

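Peaks of USP-GFP ChIP-seq in embryos were taken from 1 deposited list. It gives start, end and a score per peak on FlyBase release 5 and names MACS as its source, per the file headers. BWA, MACS2, BDGP5 and CASAVA (1.7.0.2 and 1.7.0.3) are named without settings, per the submitters' processing notes. The sources used here do not define the deposited score or say whether replicates were pooled. Fixation was for 15 min in 1.8% formaldehyde, per the labels' protocols.

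Computed here with Python 3.11.15, pandas 2.3.3, numpy 2.4.6 and scipy 1.17.1 were widths, gaps (bases between peaks), merged intervals and windows of 130001 bp starting every 10 kb between the first and last peak of each arm. A peak counts in a window that it overlaps. The scan was tested on simulated lists with a planted window. No p-value was computed. The window and all bounds were chosen with earlier results of these data known. Every peak in the window is named or given by its range, and elsewhere the windows next in coverage. Gene lists were not used, since no annotation of release 5 was at hand. Alternatives were other windows, score bounds and merging distances.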

Additional observations from a re-analysis of the deposited data

How the results depend on the processing

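Of 30 alternatives for 8 values, 12 stayed within 1.5 times the reported one. The 31 peaks of the locus were 14 at scores of 20 or more, and the 61698 covered bases were 29502 without the widest peak. Rank by number of peaks (17) was 167 with windows every 1 kb, 2 among non-overlapping windows, 11 for scores above the arm median, and 4 and 31 for windows of 50 and 260 kb. For the ranks at 50 and 260 kb, the window was centred on the middle of the locus window. The shorter one thus left out most of the broad peak, and the longer one reached past the locus on both sides. Rank by covered bases (5) was 46 with windows every 1 kb, 1 among non-overlapping windows, 2 for windows of 260 kb and 1 with windows overlapping the locus left out, an alternative chosen after seeing the data. Without the widest peak it was 7, and 2 of the windows above it did not overlap the locus. These lay on 2L and overlapped each other. Rank by highest score (43) was 419 with windows every 1 kb and 252 without the widest peak. Ranks on a finer grid count more shifted copies of the same windows, by construction. The 12 merged intervals were 26, 7 and 6 at merging distances of 100 bp, 1 kb and 2 kb. The 19 short gaps were 12 at 250 bp or less, and the 1 peak of 5 kb or more became 3 after merging within 500 bp. No paired analysis was possible because the list carries no values per library, and no library could be left out. Unknown depth limits every count, since weaker sites can fall under the calling threshold.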
